A study of Homo sapiens with 6 samples.

Results

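The genes described here are 55 genes of the mitotic spindle, the kinetochore and cytokinesis, followed after siRNA against LEF1 in BL2, an established cell line of human Burkitt lymphoma. They were taken by name, with earlier results of these data known. Of the 55, 54 were measured, out of 19775 genes named on the array. The exception is CIT, a kinase gene of the cleavage furrow, whose probe sets also name a microRNA gene. Each is read at the brightest probe set annotated to it alone. A probe set is a group of short oligonucleotides on the array that are read as 1 value. Of the 54613 tested, 41091 name 1 gene and 1801 name several. Whether a member's probe set also reads other transcripts was not tested. The series holds 6 arrays. Of these, 3 are from BL2 cells electroporated with a pool of 4 siRNAs against LEF1, and 3 are from BL2 cells electroporated with scrambled siRNA. The design text calls them biological replicates, and each of 3 labelled batches holds 1 array of each group. All 6 cultures were thus electroporated and received siRNA, and all come from 1 cell line.

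Cells divide their chromosomes on the spindle, a bundle of microtubules that attaches to each chromosome at its kinetochore. The Aurora, PLK1 and BUB1 kinases govern this attachment. The spindle checkpoint holds back the anaphase-promoting complex, a ubiquitin ligase, until every kinetochore is attached. Separase then cuts the rings that hold sister chromatids together, and a contractile ring splits the cell. Most of these genes are transcribed in G2 and mitosis, through the MuvB complex with B-MYB and FOXM1. MuvB binds a promoter element called CHR, and the factor NF-Y binds nearby CCAAT boxes. Burkitt lymphoma cells divide fast, and LEF1 is one of the TCF/LEF factors through which beta-catenin acts on its target genes.

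Values are log2 expression as deposited. LEF1 itself, the targeted gene, read 8.21, 8.09 and 8.67 on the LEF1 siRNA arrays of batches 1 to 3, against 11.09, 10.58 and 11.45 on the scrambled siRNA arrays, at its brightest probe set. It was lower in every batch, with differences of -2.87, -2.49 and -2.78, and the groups did not overlap. The log2 difference of -2.71 left 15.2% of the signal (limma adjusted p = 0.0213 without block and 7.46e-11 with batch as block). The other two probe sets of LEF1 left 28.0% and 81.5%. Of 8 B cell markers 7 were measured, at 10.34 to 13.55 in scrambled siRNA cells, while T cell markers read 6.59 to 7.40 and myeloid markers 6.39 to 7.03, close to the median of 6.91 of all values. Of the B cell markers only MME, which encodes CD10, passed, and it fell by 0.43 (limma adjusted p = 0.000605 with batch as block).

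Many of the mitotic genes were lower with LEF1 siRNA, each by a modest amount. Their median difference, LEF1 siRNA minus scrambled siRNA, was -0.17 on the log2 scale, and the median over all genes was 0.019. With batch as block, 20 of 54 members fell and 0 rose (limma, Benjamini-Hochberg adjusted p under 0.05 over 54613 probe sets). That is 37.0% of the members, whereas 1.70% of all genes fell at their brightest probe set and 6.73% rose. The members were chosen with earlier results of these data known, so setting these shares side by side is no independent test. Among genes above the median level, where all 54 members lie, 2.63% fell. The 20 genes kept between 77.2% and 85.5% of the scrambled siRNA signal. Without block 0 members passed, with a smallest limma adjusted p of 0.201, and 16 were lower at an unadjusted p under 0.05; in that fit 0.0101% of all genes fell. Of all probe sets, 1.51% fell and 4.58% rose with batch as block, 6.09% in all, while without block 0.0183% passed and 0.00732% fell.

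The direction was shared more widely than the calls. Of the 54 genes, 48 had a negative mean difference and 38 were lower in each of the 3 batches, which is 70.4% of them, against 13.7% of all genes. The groups did not overlap, with every LEF1 siRNA array below every scrambled siRNA array, for 15 members or 27.8%, against 4.03% of all genes. Both shares of all genes include dim genes, and they were not taken over genes above the median level alone. Arrays measure RNA from whole cultures, so fewer cells in mitosis and less RNA per mitotic cell cannot be told apart here.

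**Figure D1:**
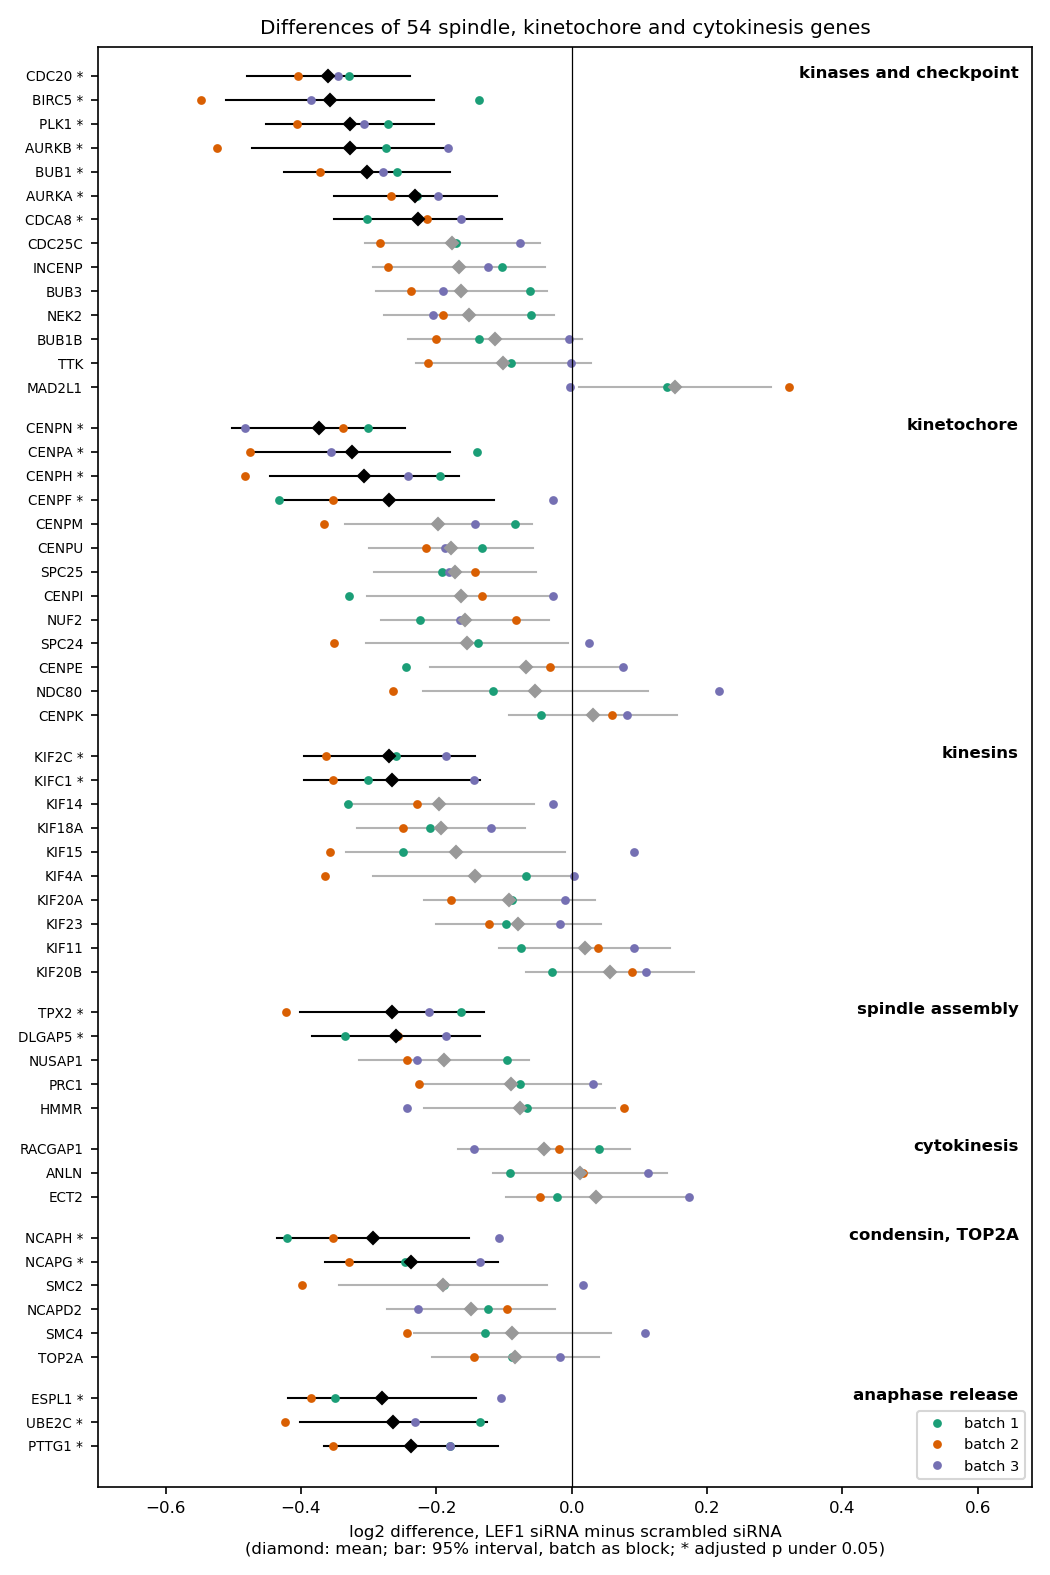
Log2 difference (x axis) of each of the 54 measured members (rows, grouped by role), LEF1 siRNA minus scrambled siRNA. Coloured points are the 3 batches, diamonds the mean and bars the 95% interval of the fit with batch as block; the 20 genes that passed are black with a star, and all of them lie left of 0.

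The calls depended on batch 2 more than on the other batches. The median difference of the members was -0.14, -0.25 and -0.13 in batches 1, 2 and 3, and 35 of 54 members had their most negative difference in batch 2. The mean level over the 54 genes was 10.16, 9.95 and 10.27 on the LEF1 siRNA arrays and 10.33, 10.19 and 10.38 on the scrambled siRNA arrays. Batch 2 was therefore lowest in both groups: 50 members had their lowest LEF1 siRNA value there and 41 their lowest scrambled siRNA value. Its LEF1 siRNA array also had the highest median over all probe sets, 6.96, against 6.89 to 6.91 on the other arrays. When all arrays were given 1 median, the same 20 members fell, and their median over the 54 was -0.20. Whether the calls depend less on batch 2 after that scaling was not tested. When batch 2 was left out, 3 members still fell, CDC20, PLK1 and CENPN, and without batches 1 and 3 there were 15 and 26. Over all probe sets 1407 passed without batch 2, and 3880 and 3626 without batches 1 and 3, against 3328 with all batches. AURKA, CDCA8, CENPF, DLGAP5, NCAPG and NCAPH were the 6 that did not pass without batch 1, and all 20 passed without batch 3. In these fits 1 residual degree of freedom remains.

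**Figure D2:**
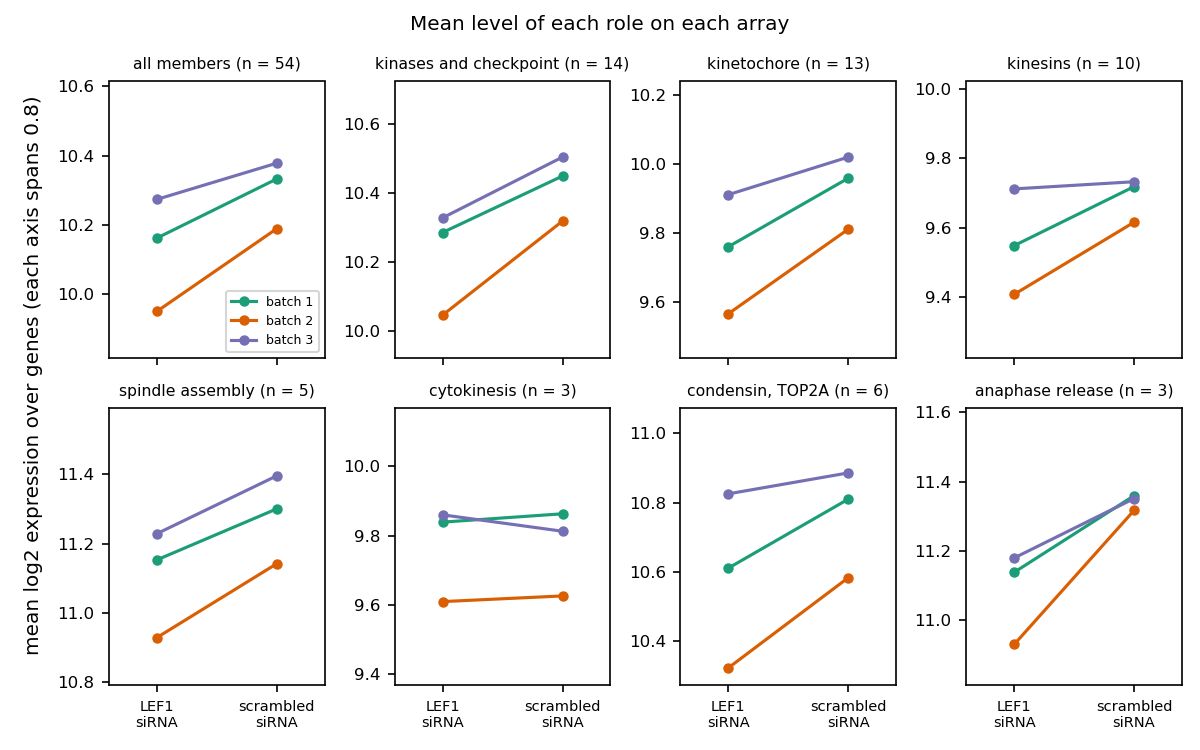
Mean log2 expression over the genes of each role (y axes, each spanning 0.8) on each array, LEF1 siRNA left and scrambled siRNA right, with lines joining the arrays of 1 batch. The mean over all members is lower with LEF1 siRNA in every batch, and the 3 cytokinesis genes differ by -0.024, -0.016 and 0.047 in batches 1 to 3.

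The count also moved with the scaling of the arrays. It was 20 when all arrays were given 1 median, 25 with quantile normalization and 22 with cyclic loess. It was 44 after scaling to the poly-A spike-ins, which are bacterial transcripts added to the RNA. The calls over all probe sets moved too, to 2785, 3315, 3240 and 8797 in the same order, against 3328 as deposited. Of these calls 66.2%, 56.1%, 60.1% and 11% rose, against 75.2% as deposited, so many more probe sets of all kinds fell under spike-in scaling. Under poly-A spike-in scaling the median difference over all probe sets was -0.11, against 0.011 as deposited. Relative to that bulk, the members' median was -0.19 under both, which follows from the scaling itself, since it moves every difference by the same amount. Of the 20 genes, 19 passed under each of these 4 scalings, and PTTG1 was the exception after cyclic loess (limma adjusted p = 0.0594). Differences below are on the deposited scale and with batch as block, and without block no member passed.

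**Figure D3:**
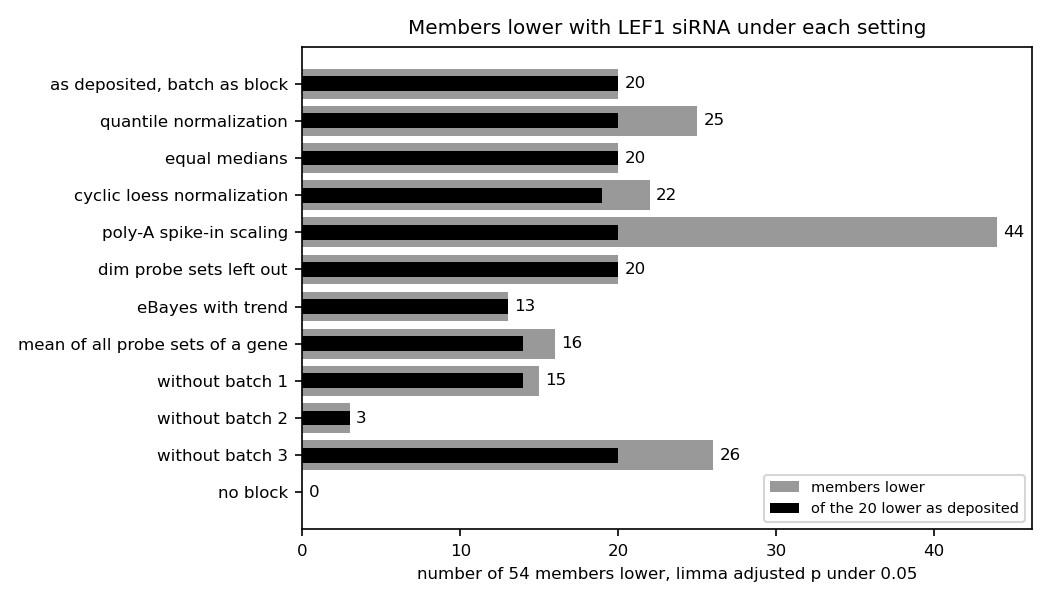
Number of the 54 members lower with LEF1 siRNA at a limma adjusted p under 0.05 (x axis) under each setting (rows). Grey bars count all members lower and black bars those among the 20 of the deposited scale. The count is 0 without block, 3 without batch 2 and 44 with poly-A spike-in scaling. Over all probe sets 10, 1407 and 8797 passed in these settings, against 3328 on the deposited scale with batch as block.

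Promoter stretches are shown for 6 genes that fell and that were picked for a match to the CHR motif. They are the 6 with the smallest p that hold such a match between 110 bases before and 10 bases after the annotated start. The sequences are from RefSeq on GRCh38.p14, printed 5′ to 3′ on the gene's strand. Capitals mark TTTGAA or TTCGAA, the CHR motif, and CCAAT, each on either strand, so that TTCAAA and ATTGG are the reverse reading.
CDC20, chr1:43358871-43358990, plus strand: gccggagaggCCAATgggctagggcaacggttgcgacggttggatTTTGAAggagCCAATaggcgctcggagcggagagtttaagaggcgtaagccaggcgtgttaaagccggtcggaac
CENPN, chr16:81007104-81007223, plus strand: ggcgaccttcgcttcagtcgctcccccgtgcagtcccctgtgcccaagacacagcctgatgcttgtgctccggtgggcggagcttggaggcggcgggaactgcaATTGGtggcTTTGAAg
PLK1, chr16:23678779-23678898, plus strand: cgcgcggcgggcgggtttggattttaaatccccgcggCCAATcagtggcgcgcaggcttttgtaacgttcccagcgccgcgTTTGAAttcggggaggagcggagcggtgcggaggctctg
BUB1, chr2:110678054-110678173, minus strand: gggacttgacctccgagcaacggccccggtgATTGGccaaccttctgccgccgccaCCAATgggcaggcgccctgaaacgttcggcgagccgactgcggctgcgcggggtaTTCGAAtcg
CENPA, chr2:26785946-26786065, plus strand: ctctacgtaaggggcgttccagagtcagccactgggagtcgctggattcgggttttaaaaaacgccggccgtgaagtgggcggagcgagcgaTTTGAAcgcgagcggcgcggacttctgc
DLGAP5, chr14:55191576-55191695, minus strand: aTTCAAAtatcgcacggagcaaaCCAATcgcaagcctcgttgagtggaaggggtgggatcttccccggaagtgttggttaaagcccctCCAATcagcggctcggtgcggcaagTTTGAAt

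The motif was common among the members whether or not they passed the test. A promoter window of 300 bases, 250 before and 50 after the start, was given for 46 of the 55 members. No window is shown for AURKA, BIRC5, TTK, BUB3, CENPH, CENPM, RACGAP1, TPX2 and UBE2C. TTTGAA or TTCGAA on either strand was found in 34 of the 46, or 73.9%, against 16.6% of 27305 gene promoters of the same length. Among the members that fell it was in 11 of 15 windows and among the measured members that did not pass in 22 of 30, which is 73.3% of each. The nearest match lay within 50 bases of the start in 29 of 46 windows, or 63.0%, against 5.05% of all promoters. CCAAT was in 34 of 46 windows, or 73.9%, against 35.7% of all promoters. It was in 13 of 15 windows of members that fell, or 86.7%, and in 20 of 30 of those that did not pass, or 66.7%, a difference that was not tested. CTTTGA, the core of the site that TCF and LEF factors bind, was in 4 of 46, or 8.70%, against 13.1% of all promoters. It can overlap the CHR motif as CTTTGAA, and 2 of its 5 matches in members did so. Other forms of the TCF and LEF site were not searched, nor was sequence outside the window. The share therefore cannot show whether members lack LEF1 sites. A match says only that the letters are there.

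Among the kinases and checkpoint genes, 7 of 14 fell and 0 rose, with a median difference of -0.20. CDC20, which activates the anaphase-promoting complex, read 10.55, 10.40 and 10.62 with LEF1 siRNA, against 10.88, 10.80 and 10.97 with scrambled siRNA. The groups were apart and the batch differences close to each other, at -0.33, -0.40 and -0.34. It fell by 0.36 (95% interval -0.48 to -0.24, limma adjusted p = 0.00185). PLK1, the kinase that acts from mitotic entry to cytokinesis, read 10.24, 9.99 and 10.16 with LEF1 siRNA, against 10.51, 10.40 and 10.47 with scrambled siRNA. These groups were apart as well, and PLK1 fell by 0.33 (limma adjusted p = 0.00384). CDC20 and PLK1 passed under every alternative run with batch as block, and the other 5 genes that fell in this role did not pass without batch 2.

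BUB1, a checkpoint kinase of the kinetochore, read 9.59, 9.38 and 9.70 with LEF1 siRNA, against 9.85, 9.75 and 9.98 with scrambled siRNA. Its highest LEF1 siRNA value lay just under its lowest scrambled siRNA value, and BUB1 fell by 0.30 (limma adjusted p = 0.00582). BIRC5 encodes survivin, a subunit of the chromosomal passenger complex, which places Aurora B at centromeres and the spindle midzone. It read 10.86, 10.34 and 10.87 with LEF1 siRNA, against 10.99, 10.88 and 11.25 with scrambled siRNA. The LEF1 siRNA array of batch 2 was far below the rest, and the batch differences ran from -0.14 to -0.55, with a mean of -0.36 (limma adjusted p = 0.00842). Of the same complex, AURKB, the Aurora B kinase gene, fell by 0.33 and CDCA8, which encodes borealin, by 0.23 (limma adjusted p = 0.0101 and 0.0321). INCENP, its scaffold, differed by -0.17 and did not pass (limma adjusted p = 0.135), though its groups were apart. AURKA, the Aurora kinase of centrosomes, fell by 0.23 (limma adjusted p = 0.0252).

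The other checkpoint genes did not pass. BUB3, a partner of BUB1, read 12.22, 11.97 and 12.18 with LEF1 siRNA, against 12.28, 12.21 and 12.37 with scrambled siRNA. Its groups overlapped, at a difference of -0.16 (95% interval -0.29 to -0.04, limma adjusted p = 0.144). MAD2L1, which encodes the checkpoint protein MAD2, read 11.98, 11.64 and 11.83 with LEF1 siRNA, against 11.84, 11.32 and 11.83 with scrambled siRNA. It had the largest positive difference of the 54, 0.15, which came from batches 1 and 2 and was -0.0029 in batch 3 (limma adjusted p = 0.242). CDC25C, the phosphatase that activates CDK1, differed by -0.18, NEK2, a kinase of centrosome separation, by -0.15, BUB1B, which encodes BUBR1, by -0.11, and TTK, the MPS1 kinase gene, by -0.10 (limma adjusted p = 0.115, 0.174, 0.375 and 0.459). BUB1B and TTK were nearly level in batch 3.

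**Figure D4:**
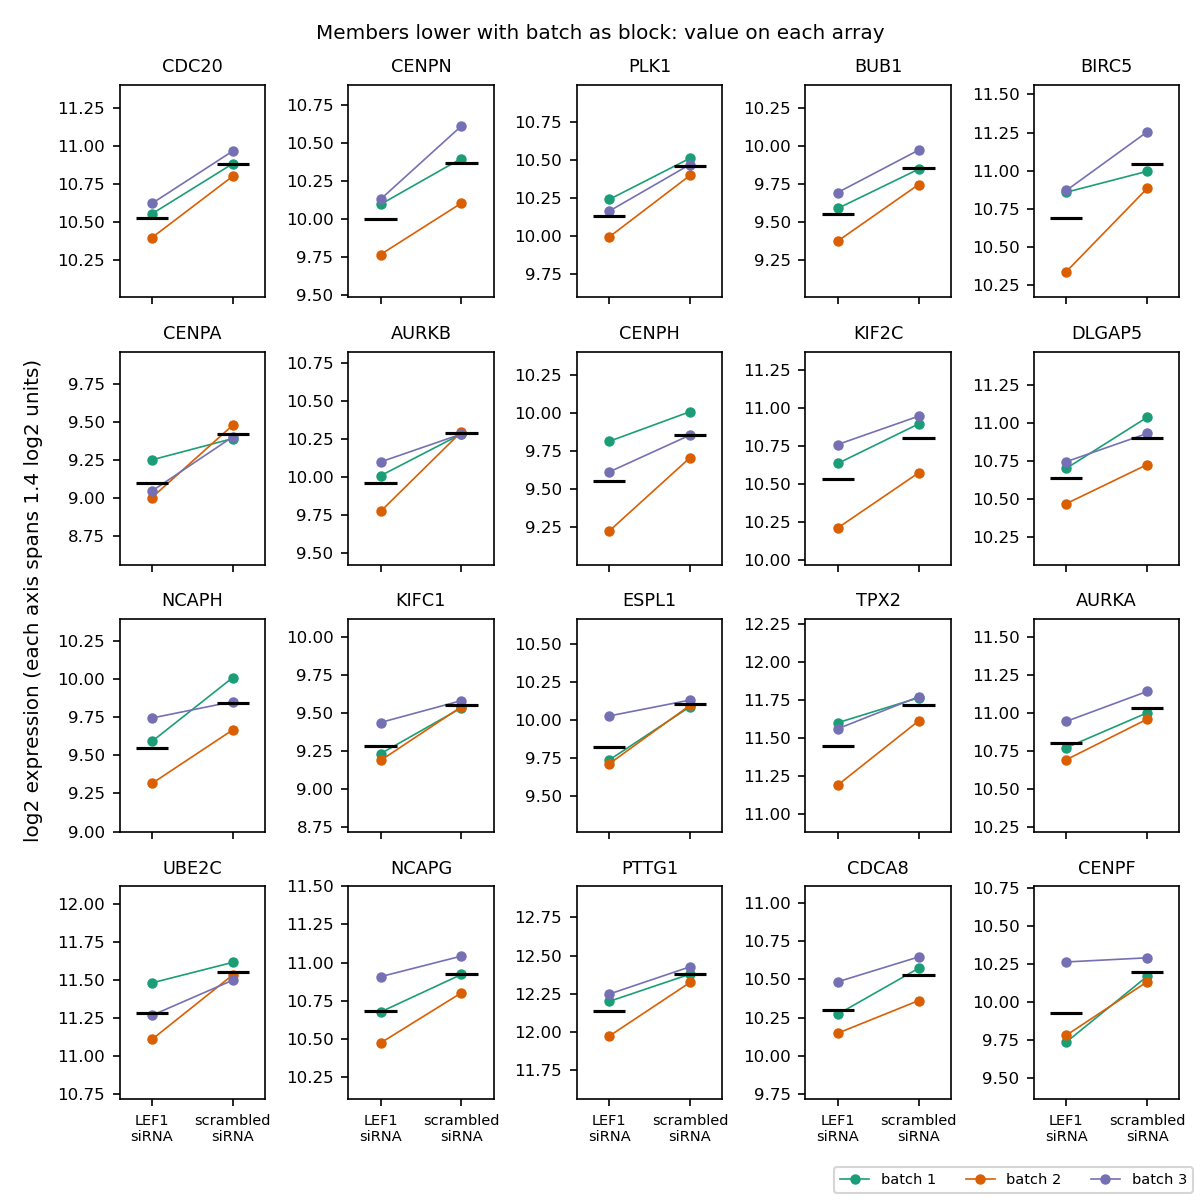
Log2 expression (y axes, each spanning 1.4) of the 20 members that fell with batch as block, LEF1 siRNA left and scrambled siRNA right. Each line joins the 2 arrays of 1 batch and black bars mark group means; every line slopes the same way, and batch 2 is lowest on the LEF1 siRNA side in most panels.

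All 3 genes of anaphase release fell. ESPL1, the separase gene, read 9.73, 9.71 and 10.02 with LEF1 siRNA, against 10.08, 10.09 and 10.13 with scrambled siRNA. Its scrambled siRNA values lay within a narrow range and the LEF1 siRNA value of batch 3 came close to it, at a mean difference of -0.28 (limma adjusted p = 0.0192). UBE2C, the ubiquitin-conjugating enzyme that works with the anaphase-promoting complex, read 11.48, 11.11 and 11.27 with LEF1 siRNA, against 11.62, 11.53 and 11.50 with scrambled siRNA. PTTG1, which encodes securin, the inhibitor of separase, read 12.20, 11.97 and 12.25 with LEF1 siRNA, against 12.38, 12.32 and 12.43 with scrambled siRNA. In each of the 3 genes the groups were apart, and UBE2C fell by 0.26 and PTTG1 by 0.24 (limma adjusted p = 0.0254 and 0.0306). Without batch 2 none of the 3 passed.

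Of the kinetochore genes, 4 of 13 fell and 0 rose, with a median of -0.17. CENPN, a reader of the centromeric nucleosome, had the most negative difference of all 54 members at its brightest probe set. It read 10.09, 9.76 and 10.13 with LEF1 siRNA, against 10.40, 10.10 and 10.61 with scrambled siRNA. The groups overlapped because batch 2 was low in both, but every batch showed a fall, of 0.30, 0.34 and 0.48 (mean difference -0.37, 95% interval -0.50 to -0.25, limma adjusted p = 0.00205). CENPA, the histone H3 variant that marks centromeres, read 9.25, 9.00 and 9.04 with LEF1 siRNA, against 9.39, 9.48 and 9.40 with scrambled siRNA. Its groups were apart, and it fell by 0.32 (limma adjusted p = 0.0101). CENPH, a subunit of the constitutive centromere network, read 9.81, 9.22 and 9.61 with LEF1 siRNA, against 10.01, 9.70 and 9.85 with scrambled siRNA, and fell by 0.31 (limma adjusted p = 0.0117).

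CENPF, a large protein of the outer kinetochore, read 9.74, 9.78 and 10.26 with LEF1 siRNA, against 10.17, 10.13 and 10.29 with scrambled siRNA. It was clearly lower in batches 1 and 2 and almost level in batch 3, at -0.027, and its limma adjusted p of 0.0415 was the largest among the 20. None of the 4 genes of the NDC80 complex, which binds microtubules directly, passed. NUF2 read 10.56, 10.55 and 10.83 with LEF1 siRNA, against 10.78, 10.64 and 10.99 with scrambled siRNA, a difference of -0.16. SPC25, SPC24 and NDC80 differed by -0.17, -0.15 and -0.054, and NDC80 and SPC24 were higher with LEF1 siRNA in batch 3. CENPU, of the constitutive network, read 11.86, 11.36 and 11.95 with LEF1 siRNA, against 12.00, 11.58 and 12.13 with scrambled siRNA. It was lower in all 3 batches by similar amounts and missed the threshold at -0.18 (limma adjusted p = 0.0859). Of the same network, CENPM differed by -0.20, CENPI by -0.16 and CENPK by 0.032. CENPE, a kinesin of the kinetochore, differed by -0.067.

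Among the 10 kinesins, motors that slide, shorten or carry along microtubules, 2 fell and 0 rose. KIF2C, which shortens microtubule ends at centromeres, read 10.64, 10.21 and 10.76 with LEF1 siRNA, against 10.90, 10.57 and 10.95 with scrambled siRNA. The groups overlapped and the fall held within each batch, at a mean of -0.27 (limma adjusted p = 0.014). KIFC1, a motor directed to microtubule minus ends, read 9.23, 9.19 and 9.44 with LEF1 siRNA, against 9.53, 9.54 and 9.58 with scrambled siRNA. It fell by 0.27 with groups apart (limma adjusted p = 0.0174).

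KIF11, the motor that pushes spindle poles apart, read 10.96, 10.60 and 11.05 with LEF1 siRNA, against 11.03, 10.56 and 10.96 with scrambled siRNA. The 2 groups lay on top of each other, and the interval of the difference was -0.11 to 0.14. KIF20A, a motor of cytokinesis, read 9.85, 9.83 and 9.91 with LEF1 siRNA, against 9.94, 10.01 and 9.92 with scrambled siRNA. Its groups were apart by a hair, at a difference of -0.092 (limma adjusted p = 0.499). KIF14, KIF18A, KIF15 and KIF4A differed by -0.20, -0.19, -0.17 and -0.14, KIF23, the motor of centralspindlin, by -0.079, and KIF20B by 0.057, and none passed. In batch 3 the median over the 10 kinesins was -0.013, against -0.15 and -0.24 in batches 1 and 2.

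In the spindle assembly group 2 of 5 genes fell. TPX2, which activates Aurora A on spindle microtubules, read 11.60, 11.19 and 11.56 with LEF1 siRNA, against 11.76, 11.61 and 11.77 with scrambled siRNA. Its groups were apart by a small gap, at a difference of -0.27 (limma adjusted p = 0.0223). DLGAP5, which stabilises kinetochore fibres, read 10.70, 10.47 and 10.74 with LEF1 siRNA, against 11.04, 10.72 and 10.93 with scrambled siRNA. The groups overlapped slightly, and DLGAP5 fell by 0.26 (limma adjusted p = 0.0158). NUSAP1, a microtubule-bundling protein gene, read 12.16, 11.87 and 12.23 with LEF1 siRNA, against 12.26, 12.12 and 12.46 with scrambled siRNA, a difference of -0.19 that did not pass (limma adjusted p = 0.0788). HMMR, a spindle pole protein gene, read 11.16, 11.00 and 11.13 with LEF1 siRNA, against 11.23, 10.92 and 11.38 with scrambled siRNA. It was higher in batch 2 and lower in the other two, at a mean of -0.077. PRC1, which bundles microtubules of the midzone, differed by -0.090.

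Of the 3 measured genes of the contractile ring and its signal none passed. Their median difference was 0.012, with -0.021, -0.019 and 0.11 in the 3 batches, and it was negative, -0.11 to -0.010, under the 4 other scalings. RACGAP1, of centralspindlin, read 10.63, 10.37 and 10.61 with LEF1 siRNA, against 10.59, 10.39 and 10.75 with scrambled siRNA. ECT2, the exchange factor that activates RhoA at the cell equator, read 9.83, 9.34 and 9.61 with LEF1 siRNA, against 9.85, 9.38 and 9.43 with scrambled siRNA. Both overlapped fully between groups, with differences of -0.041 and 0.036 and intervals of -0.17 to 0.09 and -0.10 to 0.17. ANLN, which encodes anillin, differed by 0.012. Whether these 3 genes differ from the other roles was not tested.

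Of 6 condensin and topoisomerase genes 2 fell, both specific to condensin I, one of the 2 complexes that compact mitotic chromosomes. NCAPH, its kleisin subunit, read 9.59, 9.32 and 9.75 with LEF1 siRNA, against 10.01, 9.67 and 9.85 with scrambled siRNA. NCAPG read 10.67, 10.47 and 10.91 with LEF1 siRNA, against 10.92, 10.80 and 11.04 with scrambled siRNA. In both, the spread between batches made the groups overlap while every batch was lower, and NCAPH fell by 0.29 and NCAPG by 0.24 (limma adjusted p = 0.0166 and 0.0301). Neither passed without batch 1 or without batch 2. NCAPD2, the other subunit of condensin I in the list, differed by -0.15 (limma adjusted p = 0.179). SMC4, shared by both condensins, read 11.84, 11.56 and 12.33 with LEF1 siRNA, against 11.97, 11.80 and 12.22 with scrambled siRNA, a difference of -0.088 that turned positive in batch 3. SMC2, its partner, differed by -0.19 (limma adjusted p = 0.164). TOP2A, which untangles DNA, read 11.42, 11.17 and 11.39 with LEF1 siRNA, against 11.50, 11.31 and 11.41 with scrambled siRNA, with an interval of -0.21 to 0.04.

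Members that missed the threshold had smaller falls than the 20 that passed. The least negative difference among the 20 was -0.23, for CDCA8. The most negative among the others was -0.20, for CENPM. Direction and interval did not separate them as cleanly. Of the 34 members that did not pass, 18 were lower in all 3 batches. For 27 of the 34 the 95% interval held -0.17, the median of all measured members. That median is taken over the 20 that passed and these 34 together, and is not the median of the 34 alone. For 16 of the 34 the interval, which is not adjusted for the number of probe sets, lay wholly below 0, and for the rest it did not. None of their intervals reached below -0.34 or above 0.29.

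Different probe sets of a gene did not always give the same call. The members had 102 probe sets in all, of which 32 fell and 0 rose, or 31.4%, against 1.82% falling among all probe sets that name 1 gene. In 5 genes only a dimmer probe set fell. NEK2 at its dimmer probe set read 9.05, 8.74 and 8.98 with LEF1 siRNA, against 9.36, 9.19 and 9.37 with scrambled siRNA, and fell by 0.38 with groups apart (limma adjusted p = 0.00149). NUSAP1 at its dimmer one read 10.81, 10.32 and 10.84 with LEF1 siRNA, against 11.15, 10.88 and 11.12 with scrambled siRNA, and fell by 0.40 (limma adjusted p = 0.00235). MAD2L1 had probe sets of opposite sign. At its second one it read 11.32, 10.78 and 11.24 with LEF1 siRNA, against 11.46, 11.22 and 11.64 with scrambled siRNA, and fell by 0.33 (limma adjusted p = 0.00879), while the brightest differed by 0.15. BUB3 and SMC4 fell at 1 further probe set each, by 0.30 and 0.26 (limma adjusted p = 0.0187 and 0.0158). Which probe set of such a gene reads its main transcript was not tested.

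Among the 20 genes, 9 had further probe sets, and in 6 of these a further one also fell. At them AURKA fell by 0.25, BUB1 by 0.38, ESPL1 by 0.31, KIF2C by 0.33 and CENPN by 0.21, and BIRC5 fell by 0.43 and 0.28. The further ones of AURKB, CENPF and NCAPG did not pass, at -0.095 for AURKB, 0.016 and -0.14 for CENPF and -0.075 for NCAPG. Of CENPN, both other further probe sets did not pass, and the brighter of them differed by -0.045, with 0.23 in batch 3 (limma adjusted p = 0.863). AURKA, BIRC5 and BUB1 also had dim further ones that did not pass, at 0.018 for AURKA, 0.020 for BIRC5 and -0.020 to 0.080 for the 3 of BUB1. When all probe sets of a gene were averaged, 16 members fell, of which 14 were among the 20, with NEK2 and NUSAP1 added. AURKA, AURKB, BUB1, CENPF, CENPN and NCAPG did not pass on that average.

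Mitotic genes outside the list fell in part. Calls in this and the following lists are with batch as block, and without block none of their genes passed, the smallest limma adjusted p being 0.166. Over all genes 1.70% fell and 6.73% rose. Of 29 other measured genes of the kinetochore and centromere, 11 fell and 1 rose, with a median of -0.17. SKA1, of the complex that couples kinetochores to microtubules, fell by 0.35, and TRIP13, a remodeller of the checkpoint protein MAD2, by 0.36 (limma adjusted p = 0.00383 and 0.00564). CENPX and ITGB3BP fell by 0.31 each (limma adjusted p = 0.0044 and 0.00447). The one that rose was CENPC, the scaffold of the inner kinetochore, by 0.28. It read 7.83, 7.92 and 8.19 with LEF1 siRNA, against 7.74, 7.53 and 7.83 with scrambled siRNA, and did not pass under poly-A spike-in scaling (limma adjusted p = 0.110). Of 34 other spindle and centrosome genes 6 fell and 0 rose. They included TACC3, which strengthens kinetochore fibres with CKAP5, by 0.37, HAUS2 by 0.31 and HAUS7 by 0.30, of the augmin complex, and CKAP5 by 0.25 (limma adjusted p = 0.00359, 0.0104, 0.00578 and 0.0146). Without batch 2 these counts were 3 and 2 lower and 0 higher, and under poly-A spike-in scaling 20 and 17 lower and 0 higher.

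Condensin II and cohesin genes were mixed. Of 15, 3 fell and 2 rose, whereas 1.70% of all genes fell and 6.73% rose. The median of the 15 was 0.025, and it was negative under quantile, cyclic loess and spike-in scaling. The 3 that fell were NCAPG2 by 0.36 and NCAPH2 by 0.32, of condensin II, and CDCA5, which encodes sororin, by 0.30 (limma adjusted p = 0.00355, 0.00862 and 0.00597). NIPBL and MAU2, the pair that loads cohesin, rose by 0.29 and 0.26 (limma adjusted p = 0.0151 and 0.0408). MAU2 did not pass under any of the 4 other scalings, and NIPBL did not under poly-A spike-in scaling (limma adjusted p = 0.0843). Without batch 2, 1 fell and 0 rose, and it was NCAPG2.

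Kinesins outside the mitotic list, most of them known for intracellular transport, were measured too. Of 26 genes, 0 fell and 4 rose, with a median of 0.077; over all genes 1.70% fell and 6.73% rose. KIF26B, an atypical kinesin without motor ATPase activity, rose by 0.80. It read 9.13, 8.60 and 9.01 with LEF1 siRNA, against 8.17, 7.89 and 8.29 with scrambled siRNA, with groups apart (limma adjusted p = 1.88e-05). KIF26B passed under all 4 other scalings. It also passed without each batch, at differences of 0.71, 0.84 and 0.84 without batches 1, 2 and 3, in fits with 1 residual degree of freedom. KIF16B and KIF3A rose by 0.25 each and KIF13A by 0.23 (limma adjusted p = 0.0178, 0.0222 and 0.0399). These 3 did not pass without batch 2 or under poly-A spike-in scaling, where 3 of the 26 fell, 1 rose and the median turned to -0.042. When all arrays were given 1 median, KIF13A did not pass either (limma adjusted p = 0.0604). The 26 genes were also dimmer, with a median scrambled siRNA level of 7.62, against 9.54 for the 10 mitotic kinesins. Whether these genes differ from the mitotic kinesins was not tested, nor whether their level plays a part.

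**Figure D5:**
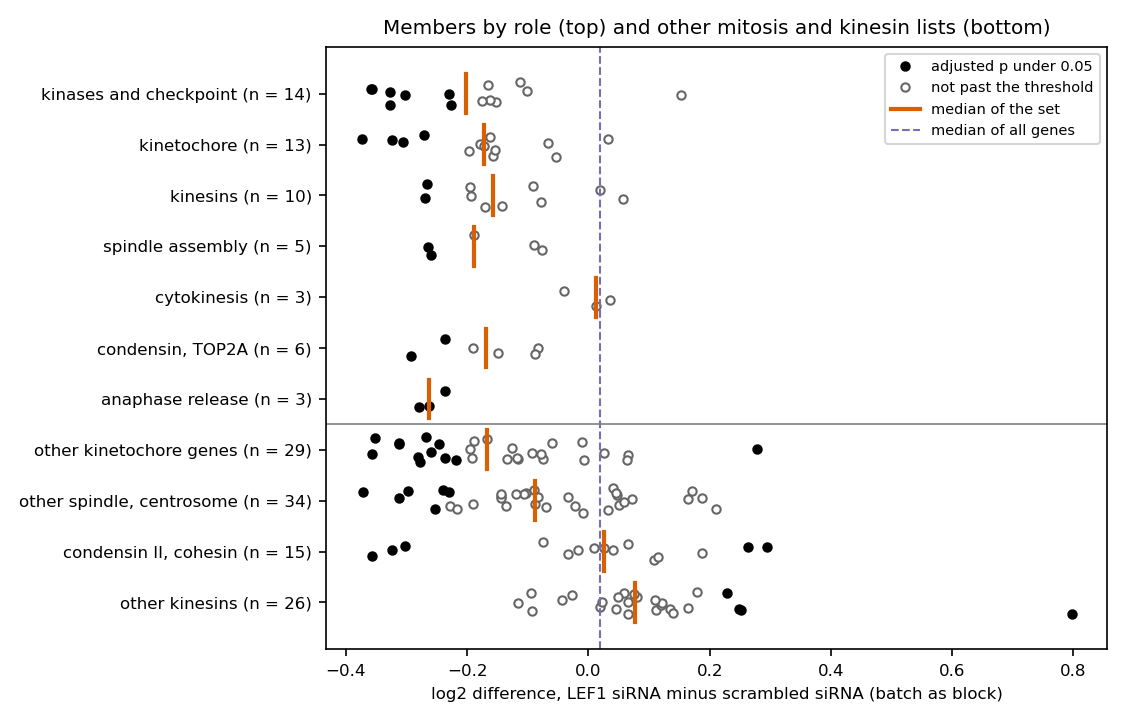
Log2 difference (x axis) of single genes, LEF1 siRNA minus scrambled siRNA, for the 7 roles of the members (above the line) and 4 other lists (below it). Filled points passed with batch as block, orange bars are medians and the dashed line is the median of all genes. On the deposited scale plotted, the kinesins outside the mitotic list have a median of 0.077. Of the 7 mitotic roles, 6 have a median below 0. Poly-A spike-in scaling turns the median of the kinesins outside the list to -0.042. They are dimmer than the mitotic kinesins, at a median scrambled siRNA level of 7.62 against 9.54.

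Transcription regulators of mitotic genes were lower in part. Of 17, 4 fell and 1 rose, whereas 1.70% of all genes fell and 6.73% rose. MYBL2, which encodes B-MYB, fell by 0.33. It read 11.87, 11.71 and 11.94 with LEF1 siRNA, against 12.10, 12.06 and 12.35 with scrambled siRNA, with groups apart (limma adjusted p = 0.00432). FOXM1 read 9.76, 9.51 and 10.03 with LEF1 siRNA, against 10.04, 9.87 and 10.18 with scrambled siRNA, and fell by 0.26 with groups overlapping (limma adjusted p = 0.0195). TFDP1, the partner of E2F factors, fell by 0.29 (limma adjusted p = 0.0193). NFYB, a subunit of NF-Y, fell by 0.24 (limma adjusted p = 0.025). RBL2, which encodes p130, the repressor that joins MuvB in resting cells, rose by 0.36. It read 10.21, 10.13 and 10.03 with LEF1 siRNA, against 9.83, 9.56 and 9.89 with scrambled siRNA, with groups apart (limma adjusted p = 0.0091). These 5 passed under each of the 4 other scalings, and without batch 2 only MYBL2 passed. Under poly-A spike-in scaling 10 of the 17 fell and 1 rose.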

How the data were processed

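Gene expression was measured on 6 arrays of BL2 cells, 3 per group. Per the labels' protocols a 3′ IVT kit was used, which reads mainly the 3′ ends of transcripts. The authors deposited log2 values of 54675 probe sets on each array; how they were background-corrected, normalized and summarised is not given in the sources used here. The log2 scale was read from the range of 5.45 to 15.0. Precision is limited by how few arrays there are.

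The 62 control probe sets were left out, and limma 3.58.1 (R 4.3.3) was run on 54613, without block and with batch as block; p-values are two-sided and Benjamini-Hochberg adjusted over all of them. Names came from the platform annotation, checked against RefSeq; 41091 probe sets name 1 gene. The batch label pairs the groups. Deviations from group means correlated at 0.477, 0.493 and 0.621 within batches, across probe sets, which are not independent. Residual and prior degrees of freedom were 4 and 4.07 without block, and 2 and 12.0 with it.

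Members, roles, lists and tests were chosen with earlier results of these data known. Values on every array are given, per role, for up to 4 members that passed, by smallest p, and up to 2 others, by highest level; of other lists up to 4 called genes are named, while CENPC, MAU2 and NFYB were named after their values were seen. Both fits were run on simulated data, in which the added changes were larger than any member's difference. That run does not test calls on changes of the members' size. Plots used matplotlib 3.10.9 (Python 3.11.15).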

Additional observations from a re-analysis of the deposited data

How the results depend on the processing

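Of all probe sets, 10 passed without block and 3328 with the replicate block, which is the batch; members lower numbered 0 and 20. LEF1 kept its difference of -2.71 in both. Without block, the 10 became 23 after quantile normalization or cyclic loess, 6 with a trended prior, 0 without batch 1 or batch 2 and 4 without batch 3, and between 0 and 8 when 1 array was left out. The members lower without block stayed at 0 throughout. Leaving out 1 array gave a median member difference between -0.28 and -0.093, and poly-A spike-in scaling gave -0.29. With batch as block, spike-in scaling raised the calls to 8797 probe sets and 44 members, and a trended prior lowered the members to 13. Leaving out batch 2 gave 1407 probe sets and 3 members. Leaving out 1 array there drops its batch, so the ranges are 1407 to 3880 probe sets and 3 to 26 members. Without batch 3, MAD2L1 rose. No member that passed changed sign under any of these settings; up to 5 that did not pass changed sign in 1 setting. The cause of these shifts was not tested. How far dim probe sets are compressed by background was not tested, and all 54 members lie above the median level.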
